A study of Mus musculus with 2 samples.

Results

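Mast cells with high combined *Prnp*, *Layn*, *Pigz* and *Neb* were taken from explant cultures of mouse embryos (Em-Ex) and of yolk sacs (YS-Ex). Concepti of the C57/BL6 strain were dissected at E8.5 (5–7 somite pairs, Theiler stage 12). The tissues were then kept on an air-liquid interface over 9–10 days with SCF, IL-3 and FLT3 ligand, and CD31+CD45+c-Kit+CD41- cells were then sorted. Each tissue gave 1 droplet library from pooled explants, and both libraries were sequenced together. No gene was deleted and no agent was given to 1 tissue alone, so the tissue of origin was the labelled difference.

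Cells entered when they held 1000–5000 genes, at most 5% mitochondrial unique molecular identifiers (UMIs, each a captured transcript), at least 40 *Cpa3* UMIs per 10000 and under 20 *Mcpt1* UMIs per 10000. These limits left 3992 cells with high *Cpa3*, 2077 from Em-Ex and 1915 from YS-Ex, of 6541 barcodes in all. The members were the 10% of these cells with the highest sum of *Prnp*, *Layn*, *Pigz* and *Neb* UMIs per 10000, with both libraries ranked together. There were 399 members, 170 from Em-Ex and 229 from YS-Ex, and the other 3593 cells (1907 and 1686) were the comparison. The values of *Prnp*, *Layn*, *Pigz*, *Neb*, *Cpa3* and *Mcpt1* in the members were thus selected on these counts and are given as a description.

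Mast cells are tissue-resident granulocytes that store proteases, histamine and serotonin in granules held on the proteoglycan serglycin, and that release them when IgE bound to its receptor is cross-linked. They depend on Kit signalling, and early waves arise from yolk sac progenitors before hematopoietic stem cells contribute. The choosing genes have unlike functions: *Prnp* encodes the prion protein, a glycosylphosphatidylinositol (GPI)-anchored surface protein, *Pigz* an enzyme that adds a mannose to the GPI anchor, *Layn* layilin, a hyaluronan receptor, and *Neb* nebulin, a giant protein of muscle thin filaments.

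With 1 library per tissue no test was possible, and no p-value is given. A level is the pooled count of a gene in a set of cells, divided by all UMIs of that set and scaled to 1000000 (CPM). Levels were compared between members and other cells of the same library. The 95% intervals in parentheses are exact (Poisson for levels, conditional binomial for ratios, Clopper-Pearson for shares of cells) and cover counting error only. Members were shallower than the other cells, with a median of 8940 against 11803 UMIs in Em-Ex and 10419 against 12114 UMIs in YS-Ex. Median mitochondrial shares were 3.55% against 3.12% and 3.82% against 3.56%. Barcodes that occurred in both libraries made up 1 member and 13 other cells in Em-Ex and 0 members and 18 other cells in YS-Ex. Among Em-Ex cells with UMIs of sex-linked genes, 28.8% (21.7–36.6%) of members and 17.7% (16.0–19.6%) of other cells were of male type. In YS-Ex the values were 34.6% and 34.1%. Cells with transcripts of both sexes, a sign of doublets between embryos, made up 3.92% of members and 4.13% of others in Em-Ex and 3.90% and 4.40% in YS-Ex. Members and other cells also differed in depth, and the part of depth and of these shares in the results was not tested beyond the alternatives given.

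The score of the 4 choosing genes was a graded and sparse measure. Its median over the 3992 cells was 0, and 2068 cells (51.8%) had no UMI of any of the 4 genes. The cut fell at 4.13 UMIs per 10000, the highest score was 21.6, and the next cell below the cut had 4.127. The 10 members just inside the cut held 2–7 UMIs of the 4 genes (median 4), and the 10 cells just outside held 3–8 UMIs (median 5). Within 20% of the cut lay 83 members above it and 126 other cells below it. The histogram of scores showed no gap at the cut in either library. The members are a range of this score, and whether they form a separate type was not tested.

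**Figure D1:**
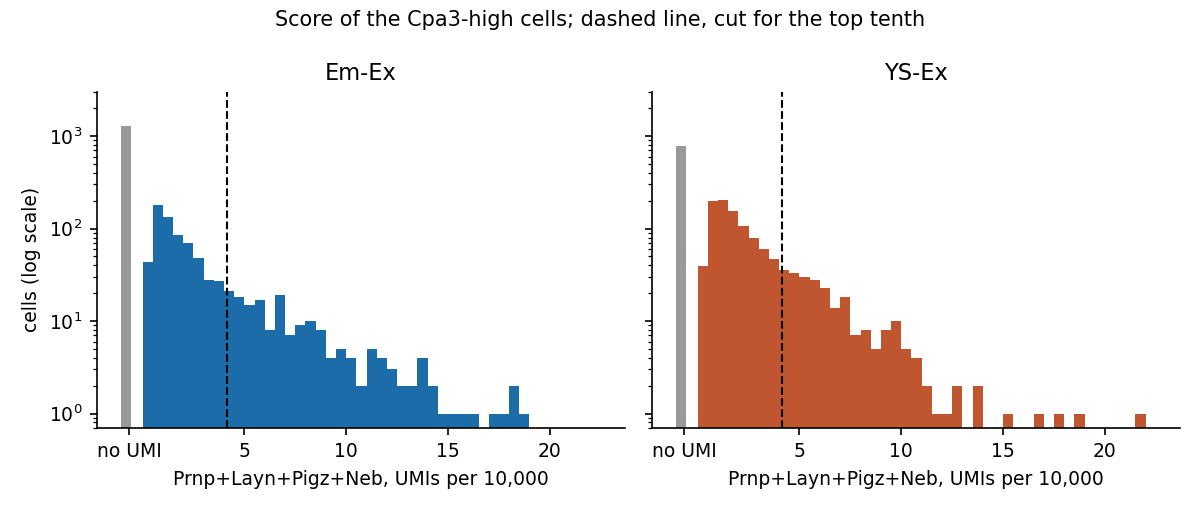
Number of cells with high *Cpa3* (vertical axis, log scale) by the summed UMIs of *Prnp*, *Layn*, *Pigz* and *Neb* per 10000 UMIs of the cell (horizontal axis, classes of 0.5), for Em-Ex and YS-Ex. The grey bar counts cells without any UMI of the 4 genes (1288 and 780), the dashed line is the cut at 4.13, and cell numbers decline through the cut without a gap.

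The members made up 8.18% (7.04–9.45%) of the cells from Em-Ex and 12.0% (10.5–13.5%) of those from YS-Ex, 1.46-fold more (1.19–1.79) in YS-Ex. This excess moved with the genes and the cut. It was 1.08-fold when the score was formed without *Neb*, 1.04-fold when the top 5% of cells were taken and 1.65-fold when the top 20% were taken. A shallow cell passes a cut on UMIs per 10000 with fewer transcripts. When all cells were thinned to 3000 UMIs before scoring, the ratio of the shares was 1.60. That setting chose 373 cells with at least 2 UMIs of the 4 genes, 260 of them members. Log2 ratios and counts of genes given below as after thinning compare these newly chosen cells with the rest, on full counts.

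Of the choosing genes, *Prnp* led in Em-Ex and shared the lead with *Neb* in YS-Ex. *Prnp* gave 62.1% of the members' UMIs of the 4 genes in Em-Ex and 34.6% in YS-Ex, where *Neb* gave 36.3%. Per cell, *Prnp* in the members ran from 0 through a median of 4.47 to 18.3 UMIs per 10000 in Em-Ex, and from 0 through 1.78 to 10.9 in YS-Ex. The pooled level of *Prnp* was 486 CPM (452–522) in Em-Ex members and 227 CPM (209–247) in YS-Ex members, against 19.4 and 15.1 CPM in the other cells. *Pigz* stood at 153 CPM in Em-Ex members and 73.9 CPM in YS-Ex members, against 8.54 and 18.7 CPM. *Layn* and *Neb* had the opposite order between the tissues. *Layn* was at 54.1 CPM in Em-Ex members and 118 CPM in YS-Ex members, against 8.22 and 30.8 CPM. *Neb* was at 89.0 CPM and 239 CPM, against 8.504 and 30.5 CPM. These 4 genes chose the members, so their levels are a description, and *Layn*, *Neb* and *Pigz* were also higher in YS-Ex among the other cells.

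Most members had UMIs of more than 1 choosing gene, and in most of them 1 gene led. UMIs of at least 2 of the 4 genes were present in 138 of 170 Em-Ex members (81.2%) and in 185 of 229 YS-Ex members (80.8%), and in 6.50% and 21.4% of the other cells. All 4 genes were seen in 7 Em-Ex and 13 YS-Ex members. A single gene gave over 50% of the UMIs of the 4 genes in 135 of 170 Em-Ex members (79.4%) and 167 of 229 YS-Ex members (72.9%). To read each gene in cells it had not chosen, the top 10% were chosen anew by the sum of the other 3 genes. *Prnp* was then 8.35-fold higher (7.35–9.48) in the chosen cells of Em-Ex and 2.57-fold (2.22–2.96) in those of YS-Ex. For *Pigz* the ratio was 7.46 (6.08–9.12) in Em-Ex and 1.96 (1.58–2.40) in YS-Ex. *Neb* gave 5.90 (4.67–7.42) and 2.37 (2.05–2.73). *Layn* gave the smallest ratios, 2.78 (1.99–3.81) and 1.39 (1.14–1.67). Each gene was thus higher where the other 3 were high in both libraries, with larger ratios in Em-Ex.

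Free RNA and shallow cells can give single UMIs, so shares of cells were also read after every cell had been thinned to 3000 UMIs, with the filtered cells under the *Cpa3* limit as a reference (median depth 16935 UMIs in Em-Ex and 10227 in YS-Ex). *Prnp* was then seen in 72.4% of Em-Ex and 40.6% of YS-Ex members (87.1% and 60.7% before thinning). In the other cells with high *Cpa3* it was seen in 6.45% and 3.62%, below the 7.12% and 10.6% of the cells low in *Cpa3*, so these shares do not show expression above background. *Pigz* was seen in 36.5% and 17.0% of members, against 2.73% and 4.80% of the other cells and 0% and 0.709% of the cells low in *Cpa3*. The cells low in *Cpa3* are a mixed reference, and whether they lack these transcripts is not known.

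The label names 2 markers that the rule did not use, and both were higher in the members. The label was set with earlier results of these data known, so these values describe it and are no independent check. *Avil*, which encodes advillin, an actin-severing protein of the villin family, had a median of 0.698 and a highest value of 5.83 UMIs per 10000 in Em-Ex members, with a median of 0 and a highest value of 8.33 in the other cells. Its pooled level was 110.0 CPM (94.2–128) against 20.6 CPM (18.9–22.5) in Em-Ex, with a ratio of 5.34 (4.47–6.35). In YS-Ex *Avil* was at 37.7 CPM (30.6–46.1) against 14.1 CPM (12.6–15.8), with a ratio of 2.67 (2.10–3.37). The ranges over cells overlapped, since most YS-Ex members had no *Avil* UMI. After thinning, *Avil* was seen in 25.3% of Em-Ex and 9.17% of YS-Ex members, against 5.40% and 3.50% of the other cells and 3.44% and 3.55% of the cells low in *Cpa3*.

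*Ccr2*, the receptor that draws monocytes and mast cell progenitors toward CCL2, was common in both groups. In Em-Ex it was at 275 CPM (249–302) in members and 116 CPM (112–120) in the other cells, for a ratio of 2.37 (2.13–2.62). In YS-Ex it was at 500.1 CPM (473–528) and 304 CPM (297–312), for a ratio of 1.64 (1.55–1.74). The ratio in YS-Ex was near the 1.5-fold used for calls, and 3 alternatives brought it to just over that size, with log2 ratios of 0.59 to 0.62 against a limit of 0.58. After thinning, *Ccr2* was seen in 37.6% of Em-Ex and 56.3% of YS-Ex members, 22.1% and 37.2% of the other cells, and 7.12% and 12.8% of the cells low in *Cpa3*.

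**Figure D2:**
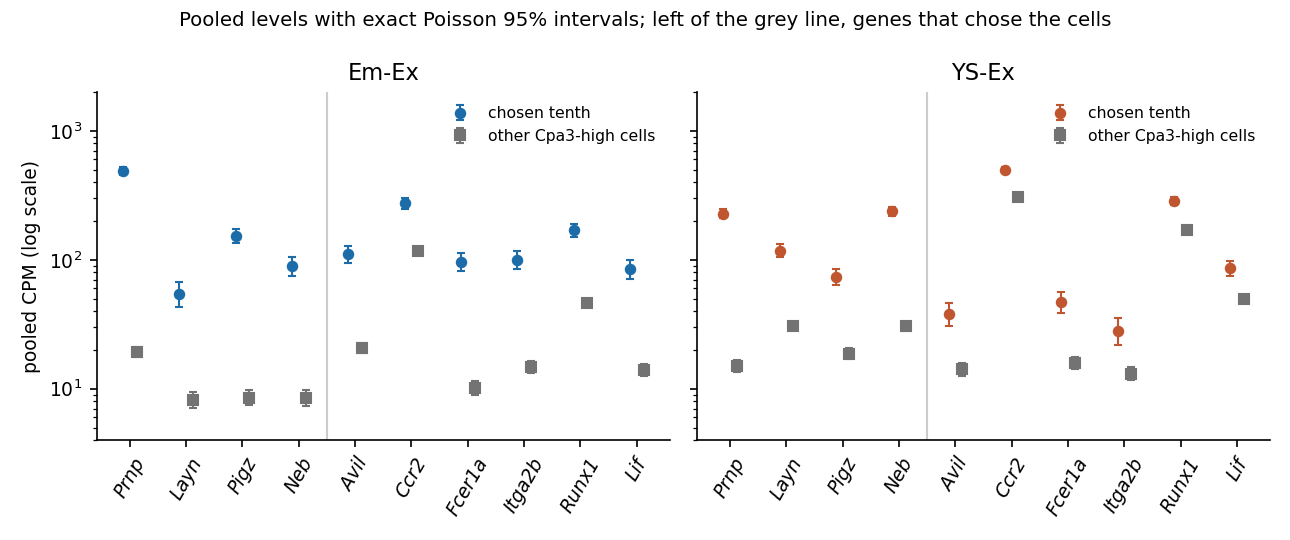
Pooled level (CPM, log axis) of the 4 choosing genes, left of the grey line, and of 6 genes that were not used to choose, right of it, in Em-Ex and YS-Ex. Circles are the members (170 and 229 cells), squares the other cells with high *Cpa3* (1907 and 1686 cells), and bars exact Poisson 95% intervals. All 6 genes on the right lie higher in the members of both libraries, with *Avil* at 110.0 against 20.6 CPM in Em-Ex and at 37.7 against 14.1 CPM in YS-Ex.

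Defining genes of mast cells that the rule did not use were present in the members. *Kit*, the receptor of SCF, which the sort also selected, was at 373 against 339 CPM in Em-Ex, with a ratio of 1.10 (1.01–1.20), and at 1010 against 989 CPM in YS-Ex, with a ratio of 1.02 (0.980–1.06). *Gata2*, a factor that mast cells need, had ratios of 1.12 (1.05–1.20) and 1.12 (1.07–1.17). The chymase *Cma1* was at 15531 CPM and 13447 CPM in members, with ratios of 0.888 (0.877–0.900) and 0.874 (0.864–0.884). *Kit*, *Gata2* and *Cma1* thus differed by less than 1.5-fold. Other mast cell genes differed by more. Of 16 tested in both libraries, 1 was higher and 3 were lower, beside 1.23% and 4.2% of all genes. *Hdc* was at 1220 against 2943 CPM in Em-Ex.

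Promoters are shown for *Prnp*, the leading choosing gene, and for *Avil* and *Fcer1a*, genes outside the rule that stood among the most raised in both libraries. The sequences are the 250 bases before the RefSeq start on GRCm38.p6, 5′ to 3′ on the strand of the gene. Capitals mark matches, on either strand, to a GATA word (AGATAA or its variant AGATAG, as well as TGATAA or its variant TGATAG, with TTATCT being the first of them on the other strand) and to CACATG, a word that MITF can bind. The windows are chr2:131909678-131909927 (+) for *Prnp*, chr10:127000459-127000708 (+) for *Avil* and chr1:173227230-173227479 (-) for *Fcer1a*.

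Prnp: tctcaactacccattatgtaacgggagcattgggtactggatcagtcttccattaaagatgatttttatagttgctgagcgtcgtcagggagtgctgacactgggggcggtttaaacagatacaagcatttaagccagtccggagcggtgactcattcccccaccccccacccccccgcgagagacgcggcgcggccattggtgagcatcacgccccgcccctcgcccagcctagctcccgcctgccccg
Avil: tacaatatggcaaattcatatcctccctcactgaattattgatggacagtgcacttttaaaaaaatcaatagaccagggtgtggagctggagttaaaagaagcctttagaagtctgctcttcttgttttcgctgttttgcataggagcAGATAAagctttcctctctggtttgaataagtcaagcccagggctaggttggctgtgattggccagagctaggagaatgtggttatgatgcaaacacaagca
Fcer1a: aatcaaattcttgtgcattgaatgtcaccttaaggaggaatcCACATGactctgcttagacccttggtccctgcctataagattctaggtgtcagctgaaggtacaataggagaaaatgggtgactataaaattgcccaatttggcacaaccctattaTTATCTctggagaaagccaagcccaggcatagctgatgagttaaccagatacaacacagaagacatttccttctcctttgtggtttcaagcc

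The window of *Avil* held 1 GATA word, 102 to 97 bases before the start. That of *Fcer1a* held 1 GATA word, 92 to 87 bases before the start, and CACATG 208 to 203 bases before it. In the windows of *Prnp*, *Layn*, *Pigz* and *Itga2b* none of these words was found. A GATA word occurred in 26.5% of all 32851 promoter windows and in 20.0% of the 4669 windows of genes tested in both libraries. It occurred in 17 of 55 windows (30.9%) of genes higher in the members and in 19.9% of 191 windows of genes lower in them. CACATG, on either strand, occurred in 17.6% of all windows and in 8 of 55 (14.5%) of those of the higher genes. A match is a description of the letters and says nothing of binding.

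Across all genes, changes past 1.5-fold were more often downward. Of 6245 genes with at least 10 CPM over the Em-Ex cells, 336 (5.38%) were higher and 941 (15.1%) lower in the members. Of 6707 such genes in YS-Ex, 127 (1.89%) were higher and 470 (7.01%) lower. In both libraries, of 5957 genes, 73 (1.23%) were higher and 250 (4.2%) lower, and 4 passed in opposite directions. The median gene was at a log2 ratio of -0.14 in Em-Ex and -0.09 in YS-Ex. Relative to that median gene, 107 genes were higher and 167 lower.

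*Fcer1a*, the IgE-binding chain of the high-affinity IgE receptor, had the highest ratios of the genes outside the rule as ranked here. In Em-Ex it was at 96.0 CPM (81.3–113) in members and 10.2 CPM (8.98–11.5) in the other cells, for a ratio of 9.41 (7.64–11.6). In YS-Ex it was at 46.8 CPM (38.7–55.9) and 15.9 CPM (14.3–17.7), with a ratio of 2.93 (2.36–3.62). Few cells carried it: 18.8% of Em-Ex and 6.99% of YS-Ex members had a UMI, against 4.20% and 5.58% of the other cells. After thinning the shares were 10.0% against 2.25% in Em-Ex and 3.93% against 3.26% in YS-Ex, and 0.459% and 1.42% in the cells low in *Cpa3*. The higher *Fcer1a* of YS-Ex members thus lay in few cells, the highest with 37.1 UMIs per 10000, and their share with a UMI differed little from that of the other cells. Its YS-Ex log2 ratio of 1.56 was 0.72 when *Neb* was left out of the score and 0.94 with the top 20% of cells. The other chains of the receptor did not follow in both libraries. *Ms4a2*, the beta chain, had ratios of 1.75 (1.46–2.09) in Em-Ex and 0.9996 (0.849–1.17) in YS-Ex, and *Fcer1g*, the gamma chain, 1.17 (1.14–1.20) and 1.04 (1.01–1.06).

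*Itga2b* encodes CD41, the integrin against which the cells had been sorted, and its transcript was nonetheless higher in the members. It was at 99.2 CPM (84.3–116) in Em-Ex members and 14.8 CPM (13.3–16.4) in the other cells, for a ratio of 6.69 (5.51–8.09). In YS-Ex it was at 27.9 CPM (21.8–35.2) and 13.0 CPM (11.6–14.6), with a ratio of 2.14 (1.63–2.78). After thinning, 28.8% of Em-Ex members had an *Itga2b* UMI, against 4.46% of the other cells and 1.38% of the cells low in *Cpa3*. In YS-Ex these shares were 9.17%, 3.74% and 1.42%. A transcript does not give the level of the surface protein that the sort read.

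The other genes among the 20 most raised in both libraries had varied functions. *Txk*, a Tec-family kinase, had ratios of 3.10 (2.39–3.98) in Em-Ex and 2.72 (2.15–3.42) in YS-Ex, and *Bcl2*, which blocks apoptosis, 4.23 (3.14–5.63) and 2.58 (2.00–3.32). *Ank*, which exports pyrophosphate and ATP, had ratios of 5.03 (4.07–6.18) and 2.26 (1.94–2.63). *Map3k8*, a kinase upstream of ERK, had 4.14 (3.09–5.47) and 1.89 (1.55–2.29). *P2rx7*, an ATP-gated channel, had 3.41 (2.53–4.53) and 1.86 (1.43–2.38). *Btg2*, an antiproliferative gene, had 3.96 (3.24–4.80) and 1.79 (1.57–2.02). *Prelid2*, *Pga5*, *Ube2l6*, *Phlda1*, *Gm42806*, *Tspan8*, *Actr3b*, *Padi2*, *Fgd2*, *Dnm3* and *Scin* completed the set. Among these, *Prelid2* had the highest ratios (6.90 and 2.81), and the lowest of the set in YS-Ex was that of *Btg2* (1.79). The ratio in Em-Ex was the larger for every one of the 20 but *Ube2l6*, with 2.00 (1.53–2.59) in Em-Ex and 2.12 (1.73–2.58) in YS-Ex. For 9 of the 20 the YS-Ex ratio fell under 1.5-fold in at least 1 alternative, and for 0 of the 20 in Em-Ex. With cells chosen after thinning, the YS-Ex log2 ratio was 0.51 for *P2rx7*, 0.57 for *Btg2*, 0.44 for *Dnm3*, 0.54 for *Tspan8* and 0.55 for *Phlda1*. The other 4 were *Pga5*, *Ube2l6*, *Actr3b* and *Padi2*.

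**Figure D3:**
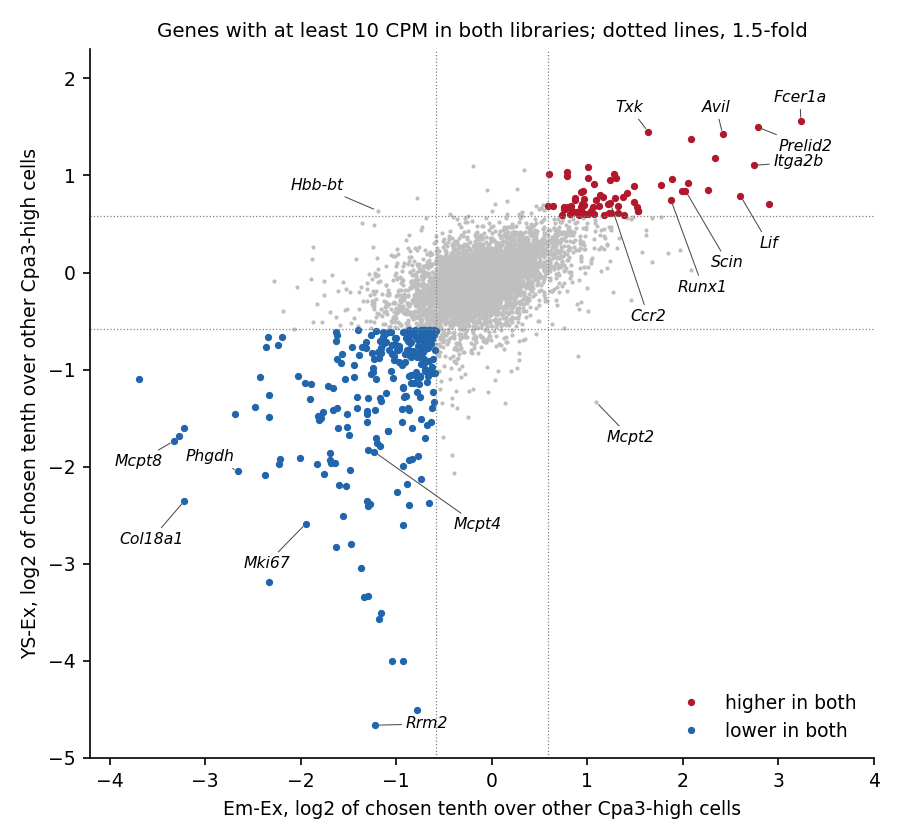
Log2 ratio of the pooled level in members to that in the other cells with high *Cpa3*, in Em-Ex (horizontal) and YS-Ex (vertical), for 5957 genes with at least 10 CPM in both libraries and not used by the rule. Dotted lines mark 1.5-fold, red points the 73 genes higher in both and blue points the 250 lower in both. *Fcer1a*, *Prelid2*, *Avil* and *Itga2b* lie at the upper right, *Col18a1*, *Mcpt8* and *Mki67* at the lower left, and *Mcpt2* and *Hbb-bt* off the diagonal.

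Among genes of mast cell identity, granules and mediators a few passed 1.5-fold. Of 16 mast cell genes tested in both libraries, 1 was higher (*Fcer1a*) and 3 were lower (*Hpgds*, *Mcpt4* and *Tpsab1*). The median log2 ratios of the list were 0.11 and 0.05, against -0.14 and -0.09 over all genes. Of 7 proteases left after the rule's own, 3 were lower in both libraries and 0 higher, beside 4.2% and 1.23% of all genes. In Em-Ex 3 were lower and 1 higher (*Mcpt2*, at a log2 ratio of 1.09), and in YS-Ex 4 were lower, with *Mcpt2* at -1.33. Their median log2 ratios were -0.18 in Em-Ex and -1.14 in YS-Ex. *Mcpt4*, a chymase of connective tissue mast cells, was at 422 CPM (390–455) against 989 CPM (977–1002) in Em-Ex and at 246 CPM (227–266) against 886 CPM (874–899) in YS-Ex. The tryptase *Tpsab1* had ratios of 0.257 (0.212–0.308) and 0.452 (0.375–0.540), while its close paralog *Tpsb2* had 1.06 (1.04–1.08) and 1.03 (1.01–1.04). Reads of such paralogs can be split in counting, so values of single tryptases and chymases are less certain. *Gzmb*, granzyme B, had ratios of 0.268 (0.216–0.328) and 0.451 (0.380–0.532). In YS-Ex the log2 ratio of *Gzmb* was -0.36 with the top 5% of cells and -0.35 after thinning, under the limit for a call, against -1.14. In Em-Ex it moved from -1.89 to -0.65 after thinning and -1.02 with the top 20% of cells. Of 18 genes of granules and exocytosis, 0 passed 1.5-fold in either direction in both libraries.

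Of 10 genes of histamine, serotonin and eicosanoid synthesis tested, 1 was higher (*Alox5*) and 1 lower (*Hpgds*) in both libraries. Of all genes 1.23% were higher and 4.2% lower. *Alox5*, the first enzyme of leukotriene synthesis, was at 396 CPM (365–428) against 181 CPM (176–186) in Em-Ex and at 228 CPM (210–248) against 142 CPM (137–147) in YS-Ex. *Tph1*, the first enzyme of serotonin synthesis, had ratios of 2.11 (2.04–2.18) and 1.43 (1.38–1.47), so that it passed 1.5-fold in Em-Ex alone. *Hdc*, which makes histamine, was at 1220 CPM (1166–1276) against 2943 CPM (2921–2964) in Em-Ex, with a ratio of 0.415 (0.396–0.434), and had a ratio of 0.851 (0.826–0.878) in YS-Ex. *Hpgds*, a prostaglandin D synthase, had ratios of 0.545 (0.442–0.667) and 0.663 (0.562–0.776). In YS-Ex the call of *Alox5* was lost in 1 alternative, with a log2 ratio of 0.53 when *Neb* was left out of the score. That of *Hpgds* was lost in 8, with log2 ratios such as -0.33 with the top 5% of cells.

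Of 4 basophil genes tested in both libraries, 3 were lower in the members, as were 4.2% of all genes. With cells chosen after thinning, 2 of the 4 were lower, at list medians of -1.15 and -0.55 (log2). *Mcpt8*, a basophil protease, was at 13.4 CPM (8.27–20.4) against 137 CPM (133–142) in Em-Ex, with a ratio of 0.0974 (0.0602–0.149). In YS-Ex its ratio was 0.295 (0.198–0.425). The log2 ratios of *Mcpt8* were -3.33 and -1.74, and they were -1.76 and -0.75 after thinning and -1.52 and -0.93 with the top 20% of cells. *Prss34* rested on 9 and 6 UMIs in the members, with ratios of 0.367 (0.167–0.704) and 0.112 (0.0409–0.246). The log2 ratio of *Prss34* in YS-Ex was -3.04, and -1.94 after thinning. In Em-Ex it was -1.37, and it was -0.70 with a mitochondrial limit of 10% and -2.03 with the top 5% of cells. *Gzmb* was the third, and is shared with the protease list. *Cd200r3*, a surface receptor of basophils and mast cells, was not lower, with ratios of 1.08 (1.01–1.17) and 1.35 (1.27–1.44).

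Among transcription factors, 3 of 17 were higher in both libraries and 0 lower, beside 1.23% and 4.2% of all genes. *Runx1*, which blood emergence from endothelium requires, was at 169 CPM (149–191) against 46.1 CPM (43.5–48.9) in Em-Ex, with a ratio of 3.67 (3.20–4.19). In YS-Ex it was at 286 CPM (266–308) against 171 CPM (166–176), with a ratio of 1.68 (1.55–1.81). *Ikzf2*, which encodes Helios, had ratios of 2.88 (2.29–3.57) and 1.55 (1.34–1.78). *Bhlhe40*, a repressor induced by many stimuli, had 2.12 (1.93–2.34) and 1.67 (1.54–1.81). In YS-Ex the log2 ratios were 0.48 for *Runx1* and 0.50 for *Bhlhe40* after thinning and 0.53 for *Ikzf2* without cycling cells, all under the limit for a call, and under either alternative 1 of the 17 was higher in both. Of 11 mast and myeloid progenitor genes, *Itga2b* and *Runx1* were higher and 0 lower, while *Cd34* had ratios of 1.14 (1.06–1.23) and 1.25 (1.17–1.33).

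Of 7 cytokine genes, 3 were higher and 0 lower in both libraries, where 1.23% and 4.2% of all genes were. *Lif*, a cytokine of the IL-6 family, was at 84.6 CPM (70.8–100.2) against 13.9 CPM (12.5–15.5) in Em-Ex and at 85.6 CPM (74.7–97.8) against 49.7 CPM (46.8–52.7) in YS-Ex. *Il13* had ratios of 2.09 (1.74–2.50) and 1.51 (1.31–1.74). The YS-Ex call of *Il13* was lost in 6 alternatives, with the lowest log2 ratio, 0.55, among members with UMIs of at least 2 choosing genes. *Csf1* lay at the limit, with log2 ratios of 0.59 (0.22 to 0.92) and 0.69 (0.47 to 0.89). *Il6* passed in Em-Ex alone, with ratios of 2.48 (2.16–2.84) and 1.19 (1.05–1.35). With the other cells weighted to the depth of the members, 1 of these 7 genes was higher in both. Of 14 immediate early genes 1 was higher in both (*Btg2*) and 0 lower, with list medians of 0.58 and 0.31 (log2). With cells chosen after thinning the count was 0. *Junb* had ratios of 2.38 (2.31–2.46) in Em-Ex and 1.36 (1.31–1.41) in YS-Ex.

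Lists around *Pigz*, *Prnp* and *Layn* are given beside the 1.23% of all genes higher and 4.2% lower in both libraries. Of 14 genes of GPI anchor assembly, 0 were higher and 0 lower in both libraries, with medians of -0.13 and -0.09 (log2) close to those of all genes. *Pigx*, a subunit of the first GPI mannosyltransferase, had ratios of 1.11 (0.908–1.34) and 1.003 (0.835–1.20). Of 8 other GPI-anchored proteins 0 were higher and 1 lower, *Plaur*, the urokinase receptor, with ratios of 0.531 (0.301–0.872) and 0.543 (0.327–0.852). With cells chosen after thinning its log2 ratios were -0.47 and -0.41, under the limit. *Ly6e* had ratios of 2.37 (2.24–2.51) and 1.39 (1.31–1.47). Of 7 genes of hyaluronan and layilin partners, 0 passed in both libraries, and *Cd44*, the main hyaluronan receptor, had 0.629 (0.447–0.863) and 0.889 (0.701–1.12).

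Of 13 genes of the villin and gelsolin family and of the thin filament, to which *Neb* belongs, 2 were higher, the label marker *Avil* and *Scin*, and 0 lower. Counts over both libraries in this paragraph stand beside 1.23% of all genes higher and 4.2% lower. *Scin*, which encodes the actin-severing protein scinderin, was at 329 CPM (301–358) against 80.6 CPM (77.1–84.3) in Em-Ex, with a ratio of 4.08 (3.69–4.49). In YS-Ex it was at 152 CPM (137–168) against 84.8 CPM (81.1–88.7), with a ratio of 1.79 (1.60–2.00). *Gsn*, gelsolin itself, had ratios of 1.65 (1.40–1.93) and 1.12 (0.922–1.34). Among 4 chemokine receptors *Ccr2* was higher and *Cx3cr1* lower, the latter with ratios of 0.640 (0.459–0.872) and 0.505 (0.387–0.649). Of 14 genes of IgE and IL-33 receptor signalling 1 was higher (*Fcer1a*) and 0 lower. Of 12 genes of hypoxia and glycolysis 1 was higher (*Bnip3*, which was at a log2 ratio of -0.12 in YS-Ex without *Neb* in the score) and 0 lower. Of 6 receptors for the culture cytokines, 5 interferon response genes and 4 chemokines 0 passed in the same direction in both libraries. The chemokine *Ccl9* passed in opposite directions, at log2 ratios of -0.78 (Em-Ex) and 0.76 (YS-Ex). By library, 5 of 8 chemokines were lower and 0 higher in Em-Ex, beside 15.1% and 5.38% of all genes. In YS-Ex 0 of 4 were lower and 2 higher, beside 7.01% and 1.89%. The *Cx3cr1* call in Em-Ex was lost in 11 alternatives, with log2 ratios such as 0.037 after thinning, -0.27 with the top 5% of cells and -0.43 with depth weights.

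**Figure D4:**
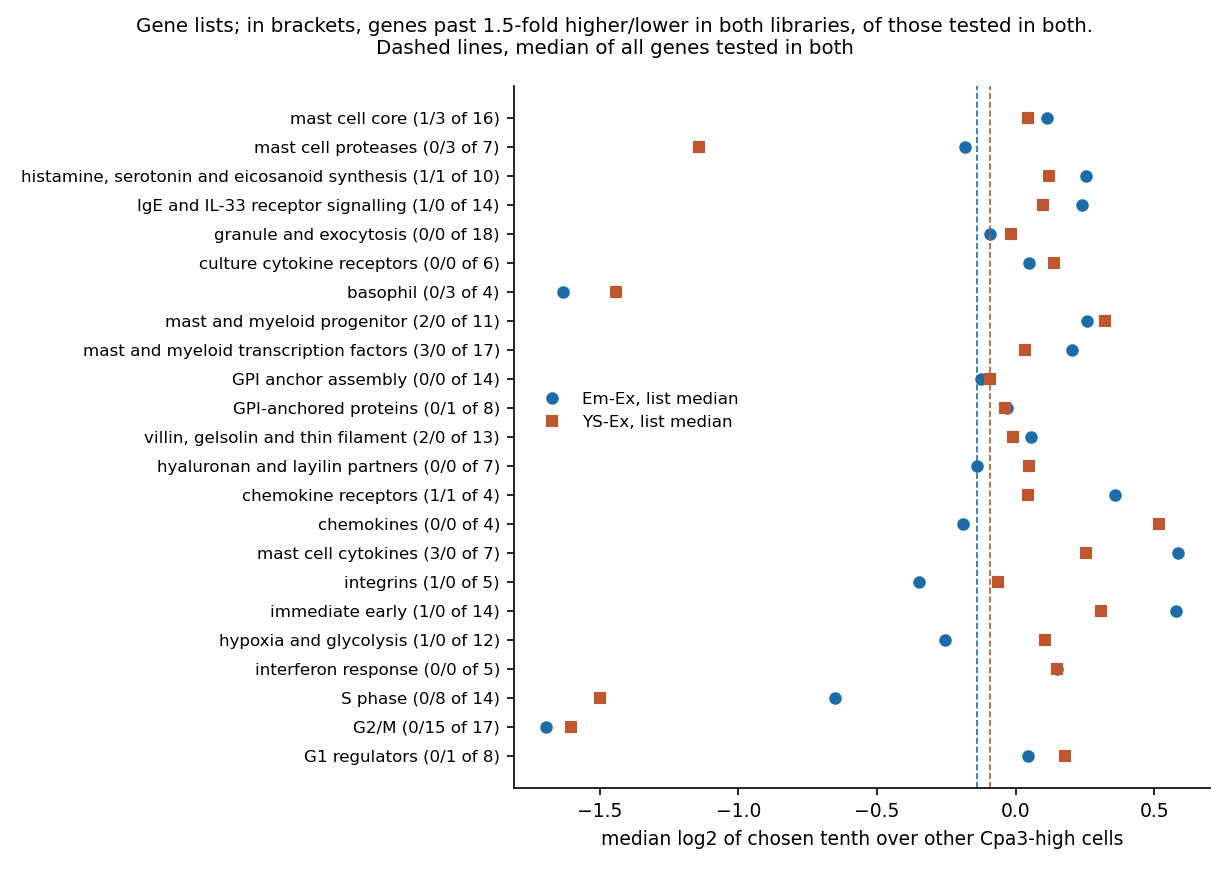
Median log2 ratio of members to the other cells with high *Cpa3* for 23 gene lists, in Em-Ex (circles) and YS-Ex (squares), over the genes tested in both libraries. Brackets give how many genes were past 1.5-fold higher and lower in both libraries, and dashed lines the medians of all 5957 genes (-0.14 and -0.09). The G2/M list lies at -1.69 and -1.60, the basophil list at -1.63 and -1.44 and the S phase list at -0.65 and -1.50.

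Genes of the cell cycle were among the lower genes. Of 17 G2/M genes 15 were lower in both libraries, and of 14 S phase genes 8, with 0 higher in either list. Of all genes 4.2% were lower in both libraries. *Mki67*, a marker of cycling cells, was at 12.1 CPM (7.27–18.9) against 47.7 CPM (45.0–50.5) in Em-Ex and at 15.7 CPM (11.2–21.4) against 95.6 CPM (91.6–99.7) in YS-Ex. *Ccna2*, cyclin A2, had ratios of 0.209 (0.126–0.328) and 0.257 (0.154–0.405), and the spindle factor *Tpx2* 0.184 (0.0836–0.350) and 0.231 (0.147–0.346). *Rrm2*, a subunit of ribonucleotide reductase, had ratios of 0.427 (0.324–0.552) and 0.0351 (0.00954–0.0901), the latter from 4 UMIs. The log2 ratio of *Rrm2* in YS-Ex moved from -4.66 to -1.63 after thinning, and in Em-Ex from -1.22 to -0.24 with depth weights. Those of *Mki67* were -1.94 and -2.59, and they were -0.97 and -1.99 with depth weights. With cells chosen after thinning, *Mki67* in YS-Ex was at -1.29 (log2). In the same setting *Ccna2* was at -1.26 and -1.05 (log2) and *Tpx2* at -1.31 and -1.37. The cyclin-dependent kinase inhibitor *Cdkn1a* had ratios of 1.97 (1.84–2.10) and 1.29 (1.22–1.37).

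Counted by cells, 18.2% (12.7–24.9%) of Em-Ex and 20.5% (15.5–26.3%) of YS-Ex members had a UMI of *Mki67*, *Top2a* or *Ccnb1*, against 36.3% (34.1–38.5%) and 36.1% (33.8–38.4%) of the other cells. Thinned to 3000 UMIs, which left out 0 cells, the shares were 7.06% (3.70–12.0%) and 4.80% (2.42–8.43%), against 20.3% (18.6–22.2%) and 18.3% (16.5–20.2%). Depth moved with these lists. With the other cells weighted to the depth of the members, 8 of 17 G2/M genes and 0 of 14 S phase genes were lower in both libraries, and the S phase median in Em-Ex was 0.04, against -0.65 without weights. In YS-Ex the weighted S phase median was -1.11, against -1.50. With cells chosen after thinning, 13 of 17 G2/M genes and 5 of 14 S phase genes were lower in both libraries. The G2/M medians were then -0.73 and -1.29 and the S phase medians -0.43 and -0.85. The part of depth in these lists was not tested further. All lower genes together numbered 103 with depth weights and 95 with cycling cells left out, against 250.

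*Phgdh*, *Slc7a5*, *Asns* and *Col18a1*, which are no cell cycle genes, were among the 10 lowest. *Phgdh*, the first enzyme of serine synthesis, was at 24.2 CPM (17.1–33.2) against 154 CPM (149–159) in Em-Ex, with a ratio of 0.157 (0.111–0.216), and had a ratio of 0.239 (0.169–0.328) in YS-Ex. *Psat1*, the next enzyme, was named after its values were seen and had ratios of 0.280 (0.203–0.377) and 0.357 (0.264–0.472). *Slc7a5*, a carrier of large neutral amino acids, had 0.213 (0.164–0.271) and 0.253 (0.190–0.331), and *Asns*, asparagine synthetase, 0.291 (0.188–0.432) and 0.228 (0.117–0.403). *Col18a1*, a basement membrane collagen, led the lower genes with 3 and 5 UMIs in the members and ratios of 0.0922 (0.0190–0.271) and 0.178 (0.0573–0.421). Its log2 ratio in Em-Ex was -3.22, and -1.40 after thinning. *Hist1h2ap*, a histone gene, and *Fam64a* were also among the 10 lowest. With depth weights the log2 ratios of *Phgdh* were -1.88 and -1.63, those of *Slc7a5* -1.64 and -1.81 and those of *Asns* -1.06 and -1.68. In YS-Ex *Asns* moved from -2.07 to -1.12 without *Neb* in the score, -1.18 without cycling cells and -1.34 after thinning, and *Phgdh* from -2.05 to -1.23 after thinning. In Em-Ex *Phgdh* moved from -2.65 to -1.65 with the top 20% of cells.

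Levels were also read along the score, and genes differed in where they changed. The cells without a UMI of the 4 genes, the other cells in 4 classes of rising score and the members in 2 classes were set in order. *Avil* in Em-Ex ran from 13.7 CPM in the cells without a UMI through 63.5 CPM in the class just below the cut to 130 CPM in the highest class. In YS-Ex it stayed between 12.2 and 17.1 CPM up to the cut and reached 27.9 and 53.8 CPM above it. *Runx1* went from 35.1 to 183 CPM in Em-Ex and from 128 to 309 CPM in YS-Ex, already at 98.0 and 246 CPM just below the cut.

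*Phgdh* in Em-Ex went from 166 CPM in the cells without a UMI to 72.6 CPM just below the cut and 23.2 CPM just above it, and *Mcpt8* from 149 CPM to 89.6 and 7.75 CPM. *Ccr2* in Em-Ex went from 84.9 CPM to 338 CPM in the lower class of members and was at 231 CPM (201–264) in the higher one, so its highest value was not at the highest score. In YS-Ex *Ccr2* went from 199 to 573 CPM. *Fcer1a* in Em-Ex went from 4.30 CPM in the cells without a UMI to 55.7 CPM (44.1–69.4) just below the cut. It was lower, at 29.4 CPM (17.7–46.0), in the lower class of members, and at 142 CPM (119–169) in the higher one. In YS-Ex *Fcer1a* was not graded, with 25.1 CPM (21.9–28.5) in the cells without a UMI and 2.67 CPM (1.22–5.07) in the third of the 4 middle classes. The summed G2/M genes were already low just below the cut, with 450 CPM (Em-Ex) and 472 CPM (YS-Ex), against 1066 and 935 CPM in the cells without a UMI. The summed S phase genes in Em-Ex were at 965 CPM in the cells without a UMI, 519 CPM just below the cut and 531 and 696 CPM in the classes of members. In YS-Ex they were at 787, 445, 228 and 345 CPM, so that in either library the higher class of members lay above the lower one.

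**Figure D5:**
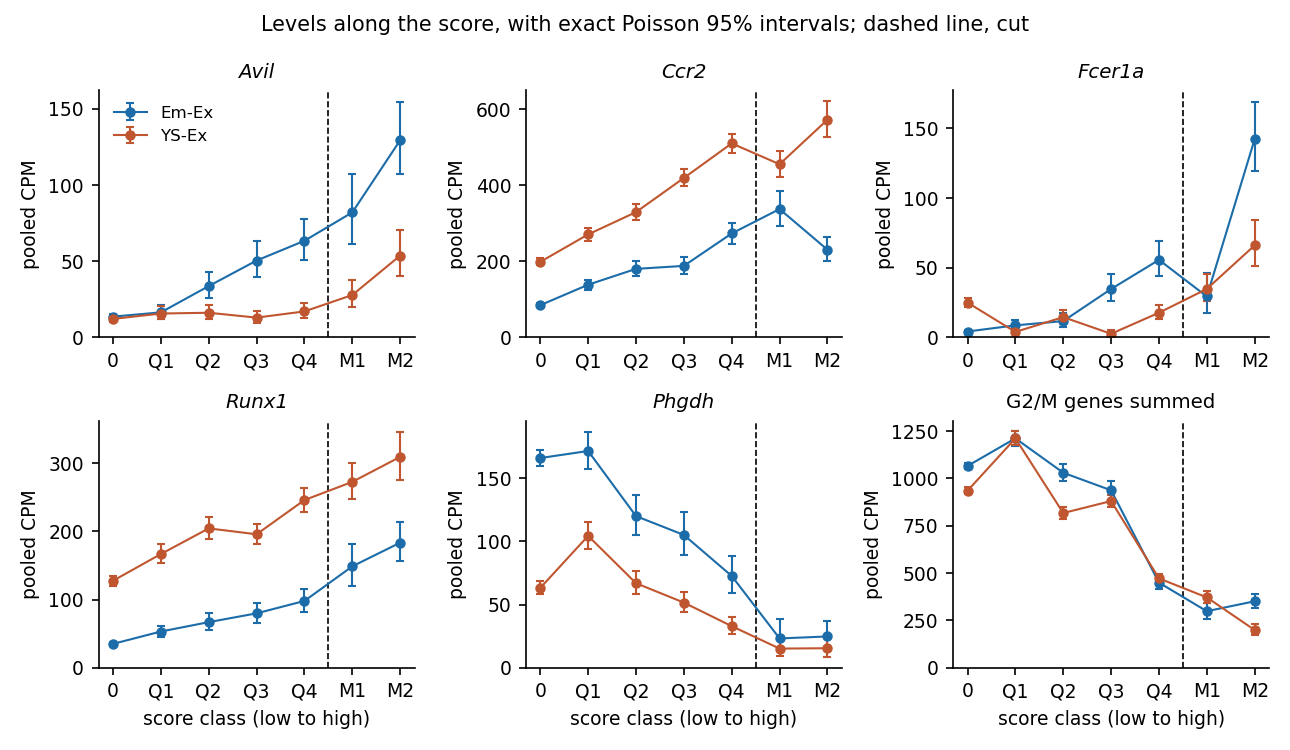
Pooled level (CPM) of 5 genes and of the summed G2/M genes in 7 classes of the score in Em-Ex (blue) and YS-Ex (orange), with exact Poisson 95% intervals. Classes run from cells without a UMI of the choosing genes (0) through 4 classes of other cells (Q1 to Q4) to the members in 2 classes (M1, M2), and the dashed line is the cut. *Runx1* goes through the cut from 35.1 to 183 CPM in Em-Ex, and the G2/M genes are already at 450 and 472 CPM in Q4.

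Ratios that differed most between the libraries were read among genes with at least 50 CPM. *Mcpt2*, a chymase of mucosal mast cells, was at 623 CPM (585–664) against 293 CPM (286–300) in Em-Ex and at 74.6 CPM (64.4–86.0) against 188 CPM (183–194) in YS-Ex. Its paralog *Mcpt1* was limited by the rule and is not compared. *Cpb1*, a carboxypeptidase, had ratios of 3.42 (3.15–3.71) and 1.49 (1.40–1.58), and *Nr4a1*, an immediate early factor, 2.01 (1.74–2.31) and 0.757 (0.632–0.900). *H19*, an imprinted noncoding RNA, had 1.10 (1.03–1.18) and 0.395 (0.361–0.431). *2810417H13Rik* had 0.445 (0.375–0.525) and 0.0868 (0.0596–0.122).

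Toward YS-Ex, *Hdc* had the ratios given above. *Plac8* had 0.193 (0.116–0.302) and 0.628 (0.525–0.747), and *Nt5dc2* 0.151 (0.0878–0.242) and 0.361 (0.275–0.465). *Hbb-bt*, an adult beta globin, had 0.431 (0.304–0.595) and 1.55 (1.42–1.70). These genes were chosen for their difference between the libraries, so the values are a description, and with 1 library per tissue the tissue and the library cannot be told apart.

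Marker lists of other cell types were read as the summed level of their genes. Of the macrophage list, *Csf1r* stood at 1.91 CPM in Em-Ex members and 0.393 CPM in YS-Ex members, and the 10 genes summed to 153 and 49.9 CPM, against 139 and 53.0 CPM in the other cells. The neutrophil progenitor list summed to 26.1 and 17.7 CPM (31.8 and 21.1 CPM in the other cells), with *Mpo* at 1.91 and 0.393 CPM. The stromal list summed to 1.91 and 6.29 CPM (5.55 and 10.8 CPM in the other cells), with 3 and 4 of its 5 genes at 0 in the members. The dendritic list summed to 20.4 and 11.0 CPM (13.3 and 9.34 CPM in the other cells) and the eosinophil list to 16.5 and 30.3 CPM (19.4 and 28.8 CPM). The hematopoietic stem cell list summed to 273 and 337 CPM (283 and 429 CPM in the other cells), with 5 of its 9 genes at 0 in the members of either library. The lymphoid list summed to 69.3 and 128 CPM (91.2 and 103 CPM), and the 1 endothelial gene measured, *Pecam1*, which the sort selected as CD31, was at 58.5 and 49.1 CPM (54.1 and 51.7 CPM).

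Of 2 erythroid genes tested in both libraries 1 was higher and 0 lower, beside 1.23% and 4.2% of all genes. The 9 measured summed to 174 CPM against 101 CPM (Em-Ex) and 328 CPM against 219 CPM (YS-Ex). The higher of the 2 tested, *Hba-a1*, an alpha globin with a near-identical copy, was at 125 CPM (108–143) against 16.6 CPM (15.1–18.3) in Em-Ex and at 88.0 CPM (76.9–100.3) against 53.9 CPM (50.9–57.0) in YS-Ex. Without *Neb* in the score its YS-Ex log2 ratio was 0.44. The other, *Hbb-bt*, had a log2 ratio of -1.19 in Em-Ex and 0.64 in YS-Ex. Of the megakaryocyte list only *Itga2b* was high, and *Pf4* had ratios of 1.25 (0.824–1.82) and 0.817 (0.520–1.23). The 2 muscle genes measured beside *Neb* summed to 1.27 CPM in Em-Ex members and were at 0 in YS-Ex members. The part of these other transcripts in the results was not tested.

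The cells picked by the genes of 3 similar groupings were compared with the members, which made up 10% of all 3992 cells. Of the 399 cells highest for *Fbp2*, *Hapln1* and *Car8*, 18 were members, 4.51% of each set. Of the 399 cells highest for *Il6* and *Gzmb*, 38 were members, 9.52% of each set. *Calca* had a UMI in 199 cells, of which 9 were members, 2.26% of the members and 4.52% of the *Calca* cells. *Hapln1* had a UMI in 1.76% of Em-Ex members and 23.1% of the other Em-Ex cells. *Il6* was carried by 43.5% and 43.2% of members and by 30.3% and 38.8% of the other cells.

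Cells outside the limits of the rule, which are no members, also passed the cut on the score. Of 123 Em-Ex cells with high *Cpa3* and at least 20 *Mcpt1* UMIs per 10000, 43 (35.0%, 26.6–44.1%) passed the same cut, and of 31 such YS-Ex cells 2 (6.45%, 0.791–21.4%), a share under the 9.68% that 3 cells would give. Of the cells under the *Cpa3* limit, 21 of 871 (2.41%, 1.498–3.66%) passed in Em-Ex, and in YS-Ex 7 of 141 (4.96%, 2.02–9.96%).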

How the data were processed

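The authors processed the reads of 2 droplet libraries (10x Chromium) into UMI counts per gene and cell and deposited these raw counts, not normalized, in 1 table of 11691 genes and 6541 barcodes. The submitters' processing notes name Cell Ranger 2.0.1, bcl2fastq 2.19.1.403 and mm10. Library names stood in the barcodes, with 0 unmapped columns. Here the counts were summed over members or other cells of a library and divided by the summed UMIs (CPM). Log2 ratios used a prior count of 0.5, and genes with at least 10 CPM over the compared cells of a library counted as higher or lower past 1.5-fold. The members, the 38 gene lists and the alternatives were chosen with earlier results of these data known.

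Named genes were the choosing genes, *Avil* and *Ccr2*, the 20 most raised and 10 most lowered genes by the weaker of their 2 log2 ratios, list members past 1.5-fold in both libraries or otherwise up to 4 of the highest level per list, and the 5 genes with the largest difference between libraries in each direction. *Psat1*, *Csf1r*, *Gsn*, *Ms4a2*, *Cd44* and the genes of similar groupings (*Fbp2*, *Hapln1*, *Car8* and *Calca*) lay outside this rule and were added after values were seen. A few genes that the rule names are not reported here. No doublet caller was run. The scripts were tested on simulated counts. Cells were thinned to 3000 UMIs with a fixed seed. Thinned counts served to choose cells or to read shares of cells, and log2 ratios were taken from full counts. Promoters came from RefSeq on GRCm38.p6. The depth was 1572439 UMIs in Em-Ex members and 2545379 in YS-Ex members, which sets the counting intervals. Python 3.11.15, numpy 2.4.6, pandas 2.3.3, scipy 1.17.1 and matplotlib 3.10.9 were used. No test or replicate comparison was possible.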

Additional observations from a re-analysis of the deposited data

Results flagged for a closer look

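Barcodes that the filter on genes and mitochondrial share had removed, but that met the limits on *Cpa3* and *Mcpt1*, also held high scores. Of these barcodes, 17.5% from Em-Ex (44 of 252) and 17.2% from YS-Ex (151 of 877) passed the cut of 4.13 UMIs per 10000, with median mitochondrial shares of 5.78% and 6.32% and median depths of 6120 and 6198 UMIs. They are outside the comparison above.

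In 4 genes the ratio was past 1.5-fold in opposite directions in the 2 libraries, and the difference was not tested. The log2 ratio of members to other cells was -1.19 (Em-Ex) and 0.64 (YS-Ex) for *Hbb-bt*. For *Mcpt2* it was 1.09 (Em-Ex) and -1.33 (YS-Ex). For *Ccl9*, which encodes a chemokine, it was -0.78 (Em-Ex) and 0.76 (YS-Ex), from 27 and 119 UMIs in the members. The fourth was *Fbp2*, named after its values were seen, with log2 ratios of 0.91 (Em-Ex) and -0.86 (YS-Ex).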

How the results depend on the processing

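The number of genes higher in both libraries (73) was 44 with the top 20% of cells, 36 with cells chosen after thinning to 3000 UMIs, 9 at 2-fold, 23 with at least 50 CPM and 342 without a level filter. The number lower (250) was 146 after thinning, 95 with cycling cells left out, 103 with the other cells weighted to the members' depth, 79 at 2-fold, 62 with at least 50 CPM and 534 without a filter. With ratios centred on the median gene, chosen after seeing the data, the counts were 107 and 167. Of the 36 genes higher after thinning, 30 were among the 73, and of the 103 lower with depth weights, 94 were among the 250.

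The log2 ratio of *Avil* in YS-Ex (1.42) was 1.83 with the top 5%, 0.93 with the top 20%, 0.99 without *Neb* and 0.86 after thinning. That of *Ccr2* in Em-Ex (1.24) was 0.93 with the top 5%, 1.01 after thinning, 1.06 without the limit on *Mcpt1*, 0.94 without cycling cells and 0.996 with depth weights. That of *Ccr2* in YS-Ex (0.72) was 0.87 with the top 5%, 0.92 with the top 20%, 0.60 without *Neb*, 0.62 after thinning, 0.59 without cycling cells and 0.81 with centred ratios. The share ratio of YS-Ex to Em-Ex (1.46) was 1.04 with the top 5%, 1.65 with the top 20% and 1.08 without *Neb*.

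Of 1898 values of 68 single genes under the alternatives, 1569 moved within their counting interval, 314 moved beyond it and 15 changed sign. *Bnip3* in YS-Ex was at -0.12 without *Neb*, and *Cx3cr1* in Em-Ex at 0.037 after thinning. Without cycling cells, *Fam64a* (0.79), *Aurkb* (0.59), *Birc5* (0.13), *Cdc20* (0.30) and *Hmmr* (0.30) changed sign in Em-Ex and *Hist1h2ap* (0.10), *Plk1* (1.54), *Cenpe* (0.47) and *E2f1* (0.060) in YS-Ex, where few of their UMIs were left by construction. With depth weights, *Mcm2* (0.023), *Mcm5* (0.019), *Gins2* (0.056) and *Cenpe* (0.11) changed sign in Em-Ex.

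No paired analysis was possible because each tissue had 1 library, and for the same reason no replicate was left out. Depth limits the choice of cells, since members near the cut rest on as few as 2 UMIs. Ratios resting on under 10 UMIs in the members, such as those of *Col18a1* and *Prss34*, have wide intervals. Effects of library, litter mix and ambient RNA were not tested.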
